A study of Mus musculus with 23 samples.

Results

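The cardiac myosin heavy chain genes Myh6 and Myh7 and the cardiac light chain genes Myl2, Myl3, Myl4 and Myl7 were followed through single mouse cells before and after transfer of cardiomyocyte RNA. The genes were taken by name, and every probe set that the platform annotation ties to one of these 6 symbols was kept, which gave 12 of the 45101 probe sets on the array, or 6 of 18193 named genes. A probe set is the group of short probes that together report 1 transcript on an Affymetrix array. Of the 12, 10 carried 1 symbol, and the other 2 (1448554_s_at and 1448827_s_at) named Myh7 and Myh6 together, so they are described as shared and enter no count of members.

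Each of the 23 arrays held the amplified RNA of 1 cell. The 5 fibroTIPeR cells were fibroblasts that received poly-A RNA of cardiomyocytes through a lipid reagent, and the 3 fibroControl cells were fibroblasts that received fibroblast RNA the same way. The 6 astroTIPeR cells were astrocytes given cardiomyocyte RNA, and the 2 astroControl cells were mock-transfected astrocytes. The 4 cardiomyocytes and 3 fibroblasts had no transfer. All were cultured in DMEM with FBS and picked with a glass pipette; TIPeR, transcriptome-induced phenotype remodeling, is the name of the transfer. The labels name no strain, age, culture or animal, so n counts cells, and a p-value speaks of the scatter among the cells at hand, part of which may be technical. An array reads the RNA that a cell took up and the RNA it made itself alike, so these cannot be told apart.

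In striated muscle a myosin motor is built from a pair of heavy chains, each with a regulatory and an essential light chain bound to its neck. Myh6 encodes the alpha heavy chain, the main form of the adult mouse heart, and Myh7 the slower beta heavy chain, which is prominent in the fetal ventricle and in slow skeletal muscle. Myl2 and Myl3 encode the regulatory and essential light chains of the ventricle, and Myl7 and Myl4 those of the atrium. Cardiac myosins are used as markers of the cardiomyocyte state because fibroblasts and astrocytes build their contractile fibres with non-muscle myosin.

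Levels are log2 values after quantile normalization of all 23 arrays, on which the median probe set had a mean level of 5.02. The labelled cell types were checked on lists of known markers. A list of 12 cardiomyocyte genes without myosins averaged 8.85 ± 0.47 in cardiomyocytes and 5.73 ± 0.55 in fibroblasts (SD, n = 4 and 3). Of these 12 genes, 5 were higher in cardiomyocytes by the test used below, where 0.176% of all genes passed in either direction. Among them was Tnni3, the cardiac troponin I gene, at 11.96 ± 0.98 in cardiomyocytes and 4.76 ± 0.66 in fibroblasts. Vim, the fibroblast intermediate filament gene, was at 5.81 ± 3.77 in cardiomyocytes against 14.85 ± 0.46 in fibroblasts. The 12 fibroblast markers together averaged 6.33 in cardiomyocytes and 8.40 in fibroblasts. By the same test 2 of them were lower in cardiomyocytes, against the same 0.176% of all genes. Markers of skeletal muscle averaged 4.76 and 5.11, of smooth muscle 4.84 and 7.50, of endothelium 5.98 and 4.94 and of macrophages 6.72 and 6.53 in cardiomyocytes and fibroblasts, and their part in the results was not tested. The 9 astrocyte markers did not set the astrocytes apart: their mean was 7.39 in astroTIPeR and 6.73 in astroControl cells, 7.76 in cardiomyocytes and 7.21 in fibroblasts. Gfap, the astrocyte filament gene, was at 4.70 and 5.32 in the astroTIPeR and astroControl groups, below its 6.13 in cardiomyocytes. The astrocyte arrays as deposited also had lower medians, 4.28 to 4.56, than the 15 other arrays, 5.05 to 5.58, so that array set and cell type cannot be told apart across the recipients.

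Myh6 separated cardiomyocytes from every other cell. Its probe set 1448826_at stood at 9.90, 11.55, 11.76 and 10.44 in the 4 cardiomyocytes, against 5.67, 5.69 and 8.48 in the 3 fibroblasts. The groups did not overlap, and fibroblast 3 lay well above its 2 fellows and nearest to the cardiomyocytes. The mean difference of 4.30 (SE 0.76, 95% interval 2.73 to 5.86) passed the test, limma across all 45037 non-control probe sets with Benjamini-Hochberg adjustment (adjusted p = 0.01055). The other Myh6 probe set, 1417729_at, sat at the bottom of the array's range, with 3.13, 5.49, 1.996 and 2.02 in cardiomyocytes against 2.15, 2.99 and 2.18 in fibroblasts. Only cardiomyocyte 2 exceeded all fibroblasts by more than 1 log2 unit there. Myh7 gave no such separation: 1448553_at was at 2.56, 7.21, 4.29 and 3.82 in cardiomyocytes against 4.13, 3.62 and 4.90 in fibroblasts. Cardiomyocyte 2 was again the high cell, and the other 3 fell within or below the range of the fibroblasts. The Myh7 difference was 0.25 (adjusted p = 0.9439), and leaving out cardiomyocyte 2 turned it to -0.66.

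The probe sets shared by both heavy chains behaved differently from each other. The first, 1448554_s_at, was at 6.14, 7.12, 8.79 and 5.83 in cardiomyocytes against 4.16, 4.21 and 4.37 in fibroblasts. All cardiomyocytes lay above all fibroblasts, and the difference of 2.72 did not pass the threshold (adjusted p = 0.1491). With arrayWeights, limma's down-weighting of variable arrays, it was 2.95 and passed (adjusted p = 0.004612), as it did with the replicate number as a term (adjusted p = 0.04588). For 1448827_s_at the cardiomyocytes held 3.64, 2.54, 3.05 and 3.54, against 4.31, 4.38 and 3.51 in fibroblasts, and the groups overlapped. Signal on such probe sets cannot be assigned to either chain.

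The Myh6 and Myh7 genes lie side by side on chromosome 14, both on the minus strand. The Myh6 promoter is shown because this gene carried the clearest heavy chain difference. It is the RefSeq window of 300 bases that ends shortly after the annotated start in GRCm38.p6, chr14:54966558-54966857, minus strand, written 5′ to 3′ along the gene. Capitals mark matches, on either strand, to TATAAA, the TATA box core, and CATTCC, the M-CAT core bound by TEAD factors.
Myh6: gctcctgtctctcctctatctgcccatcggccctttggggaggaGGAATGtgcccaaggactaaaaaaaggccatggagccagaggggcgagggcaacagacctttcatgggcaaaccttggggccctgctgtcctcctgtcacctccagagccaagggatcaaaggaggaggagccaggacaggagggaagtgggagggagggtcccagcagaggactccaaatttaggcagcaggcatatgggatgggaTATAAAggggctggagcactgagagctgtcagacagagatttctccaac
TATAAA began 2 bases after the annotated start, and CATTCC lay on the opposite strand at -206. Over all 32851 promoter windows of this length, 13.6% held TATAAA and 14.7% held CATTCC, so a match is a description of the sequence only.

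Myl2, the ventricular regulatory light chain gene, showed the widest gap between cardiomyocytes and fibroblasts of the 10 members. It stood at 8.60, 10.12, 10.50 and 10.36 in cardiomyocytes, against 2.90, 4.80 and 4.99 in fibroblasts. Every cardiomyocyte was above every fibroblast by more than 3 log2 units. The difference was 5.67 (SE 0.68, interval 4.27 to 7.07, limma adjusted p = 5.582e-05). Myl7, the atrial regulatory light chain gene, was at 4.65, 3.72, 6.21 and 5.32 in cardiomyocytes against 4.63, 4.61 and 4.57 in fibroblasts. The fibroblasts were close together inside the wide range of the cardiomyocytes, and the difference of 0.37 did not pass (adjusted p = 0.9063).

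RefSeq annotates a pair of Myl2 start windows, both shown because Myl2 was the strongest member. They are GRCm38.p6 chr5:122092474-122092773 and chr5:122092939-122093238, plus strand, with capitals for GATAA, the core bound by GATA factors, in the first and for TATAAA read on the opposite strand in the second.
Myl2 window 1: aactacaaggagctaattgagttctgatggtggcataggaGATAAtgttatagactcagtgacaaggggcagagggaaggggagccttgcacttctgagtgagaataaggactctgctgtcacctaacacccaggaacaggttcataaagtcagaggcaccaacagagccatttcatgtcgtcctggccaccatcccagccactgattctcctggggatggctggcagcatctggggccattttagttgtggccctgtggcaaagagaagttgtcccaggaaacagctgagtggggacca
Myl2 window 2: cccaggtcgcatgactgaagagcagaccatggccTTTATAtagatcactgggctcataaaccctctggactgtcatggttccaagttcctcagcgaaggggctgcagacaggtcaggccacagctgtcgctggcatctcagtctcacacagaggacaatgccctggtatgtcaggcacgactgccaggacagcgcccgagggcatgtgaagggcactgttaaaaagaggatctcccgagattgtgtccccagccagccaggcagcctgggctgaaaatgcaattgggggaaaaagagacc
GATAA was present in 25.4% of all windows. Neither Myl2 window held CATTCC, a CArG box, the site of serum response factor, or a MEF2 site.

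Myl3, the ventricular essential light chain gene, was read by 3 probe sets, all with higher means in cardiomyocytes and none past the threshold. On 1427769_x_at the cardiomyocytes were at 9.06, 10.25, 10.73 and 10.70, against 6.58, 6.13 and 5.56 in fibroblasts. On 1427768_s_at they were at 6.50, 6.31, 6.25 and 6.10, against 3.72, 4.12 and 5.52. On 1428266_at they were at 6.95, 6.64, 6.64 and 7.05, against 5.74, 5.43 and 4.90. None of the 3 had overlapping groups. The differences were 4.09 (SE 1.02, adjusted p = 0.135), 1.83 (adjusted p = 0.4684) and 1.46 (adjusted p = 0.4551). With arrayWeights the first became 4.29 (adjusted p = 0.0006131) and the second 2.04 (adjusted p = 0.02663), and both passed.

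The Myl3 promoter is shown because it held the most matches of the 8 windows of the 6 genes. It is GRCm38.p6 chr9:110763428-110763727, plus strand, with capitals for CATTCC on each strand, the CArG box and GATAA.
Myl3: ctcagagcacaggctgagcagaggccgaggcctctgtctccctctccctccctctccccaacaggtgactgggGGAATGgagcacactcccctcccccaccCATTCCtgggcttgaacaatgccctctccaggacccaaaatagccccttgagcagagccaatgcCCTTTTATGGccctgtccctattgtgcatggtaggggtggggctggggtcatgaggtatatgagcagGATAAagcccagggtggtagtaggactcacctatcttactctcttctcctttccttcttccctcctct
The CArG box, at -85, was found in 1.63% of all windows and in 2 of these 8, those of Myl3 and Myl7. CATTCC was found in 4 of the 8, GATAA in 3, TATAAA in 2 and a MEF2 site, which 3.19% of all windows held, in 0. No match says only that these letters are not in the window.

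Myl4, the atrial essential light chain gene, did not pass on either of its probe sets. On 1422580_at it was at 4.95, 2.70, 4.52 and 4.29 in cardiomyocytes and 4.52, 4.97 and 4.04 in fibroblasts, overlapping throughout. On 1457126_at the level was high and nearly flat over the whole experiment, at 11.33, 11.25, 11.41 and 11.42 in cardiomyocytes and 11.35, 11.64 and 9.81 in fibroblasts. Fibroblast 3 was the exception, and apart from it and astroControl 2 at 9.71 and fibroTIPeR 1 at 10.65 no cell fell below 11. The SD of 1457126_at over the 23 cells, 0.488, was at the 3.577 percentile of all probe sets. The Myl4 probe sets thus disagreed in level, with means over the 23 cells of 4.54 on 1422580_at and 11.17 on 1457126_at. Which of them reports the Myl4 transcript was not tested. The high level is therefore not taken as expression of Myl4 in fibroblasts or astrocytes.

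In all, 2 of the 10 members passed between cardiomyocytes and fibroblasts, both higher, where 0.127% of all probe sets passed and 0.0644% passed as higher. Their median difference was 1.09, against 0.083 over all probe sets, and 9 of the 10 were positive. In 5 of the 10 every cardiomyocyte was above every fibroblast, where 7.12% of all probe sets did so. The Myh6 call was lost without fibroblast 1 (adjusted p = 0.08586), fibroblast 2 (0.09266) or cardiomyocyte 3 (0.05082). With the mean of the Myh6 probe sets the difference was 2.51 and passed (adjusted p = 0.03719). In a fit of these 7 cells alone neither Myh6 (0.1154) nor Myl2 (0.05125) passed.

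**Figure D1:**
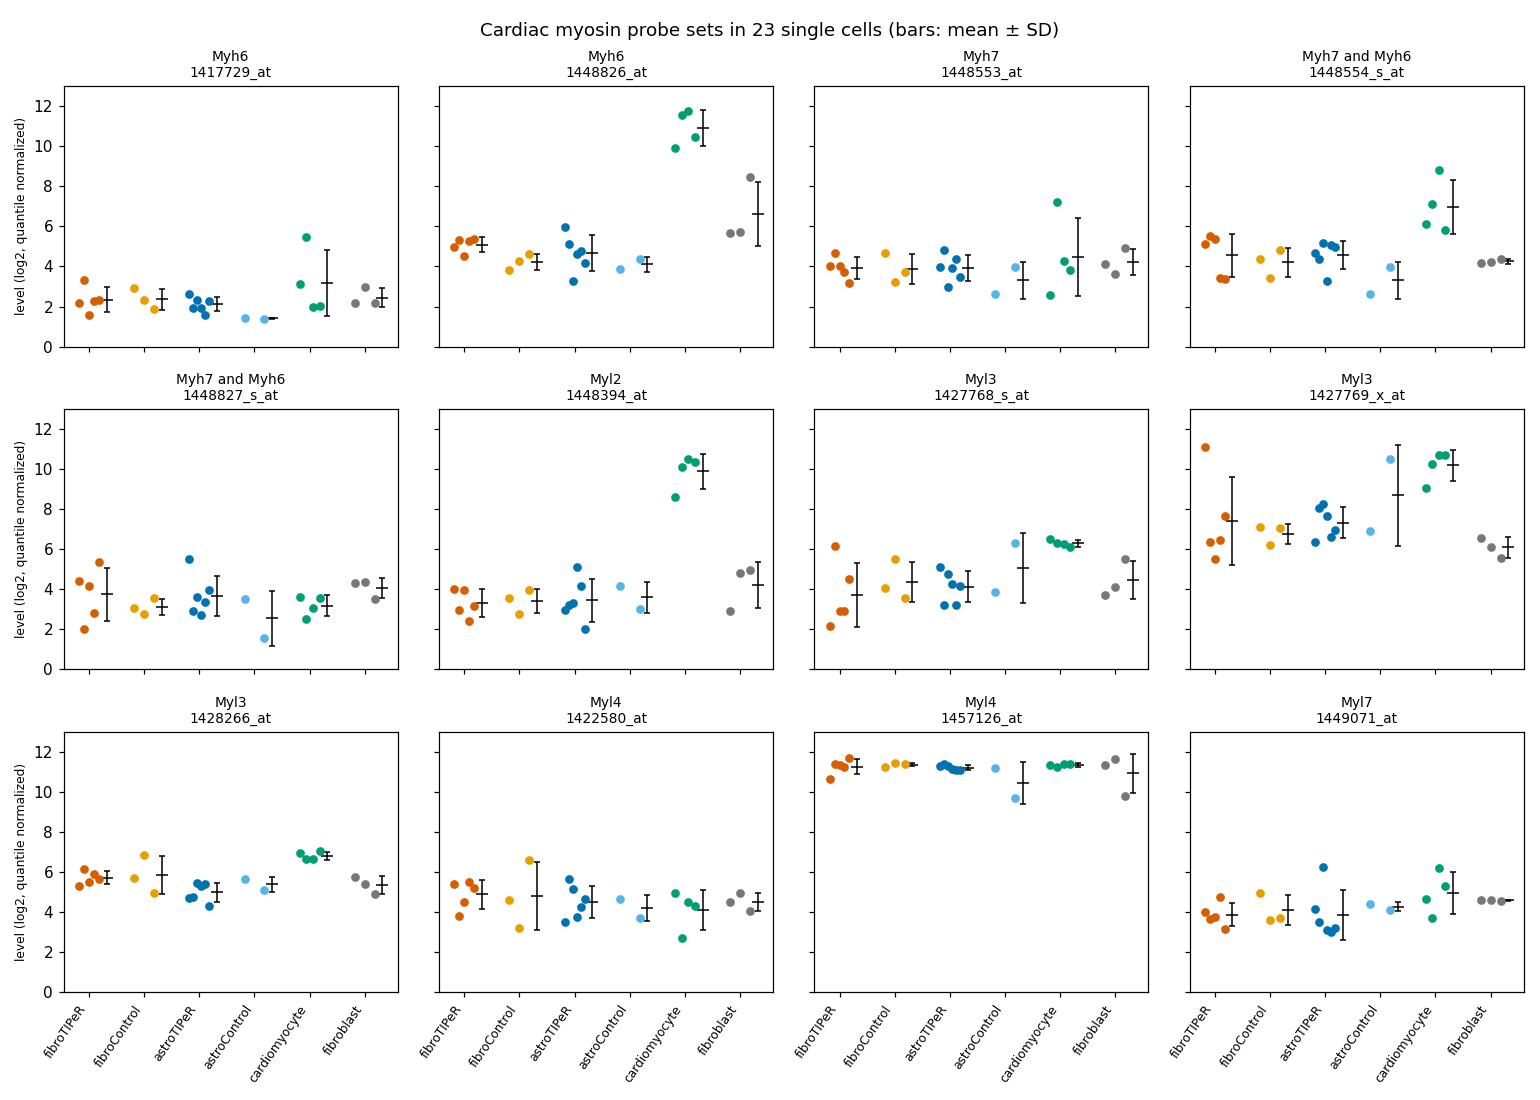
Log2 level after quantile normalization (vertical axis) of each of the 12 probe sets, 1 panel each, by group. Points are cells and bars the mean ± SD. Myl2 is at 8.60 or more in the 4 cardiomyocytes and below that in every other cell, and Myh6 (1448826_at) is above 9 in the cardiomyocytes with fibroblast 3 next at 8.48, while Myl4 (1457126_at) is near 11 in nearly every cell.

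Comparing fibroTIPeR with fibroControl cells asked whether fibroblasts given cardiomyocyte RNA carry cardiac transcripts that fibroblasts given fibroblast RNA do not. For the cardiac myosins no difference passed. Myl2 was at 4.03, 2.95, 3.98, 2.43 and 3.18 in fibroTIPeR cells, against 3.54, 2.76 and 3.95 in fibroControl cells. The ranges overlapped almost completely, and no fibroTIPeR cell came within 4 log2 units of the lowest cardiomyocyte. The difference was -0.10 (interval -1.45 to 1.24, limma adjusted p = 0.9909). Its upper bound lay below 4.27, the lower bound of the Myl2 difference between cardiomyocytes and fibroblasts.

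Myh6 (1448826_at) was at 4.98, 5.32, 4.52, 5.28 and 5.38 in fibroTIPeR cells, against 3.82, 4.27 and 4.63 in fibroControl cells. Of the 5 fibroTIPeR cells, 4 lay above all fibroControl cells, and cell 3 lay among them. The difference of 0.86 (interval -0.64 to 2.36) did not pass (adjusted p = 0.9016). Both groups also lay below all 3 untreated fibroblasts on this probe set. The difference from fibroblasts was -1.52 for fibroTIPeR (adjusted p = 0.4666) and -2.38 for fibroControl cells (adjusted p = 0.1275), so neither passed. Without fibroblast 3 these differences were -0.59 (adjusted p = 0.8479) and -1.44 (adjusted p = 0.4055). With the mean of the Myh6 probe sets they were -0.81 and -1.22.

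The remaining members did not pass either. Myl3 1427769_x_at was at 11.08, 6.36, 5.53, 6.44 and 7.64 in fibroTIPeR cells, against 7.09, 6.21 and 7.06 in fibroControl cells. FibroTIPeR 1 was above every cardiomyocyte there, and the remaining 4 cells spread around the fibroControl range. The same cell held 2.18 on 1427768_s_at and 5.32 on 1428266_at, both below all cardiomyocytes, so the 3 Myl3 probe sets did not move together in it. On 1427768_s_at another cell, fibroTIPeR 2 at 6.15, lay just above the lowest cardiomyocyte at 6.10.

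**Figure D2:**
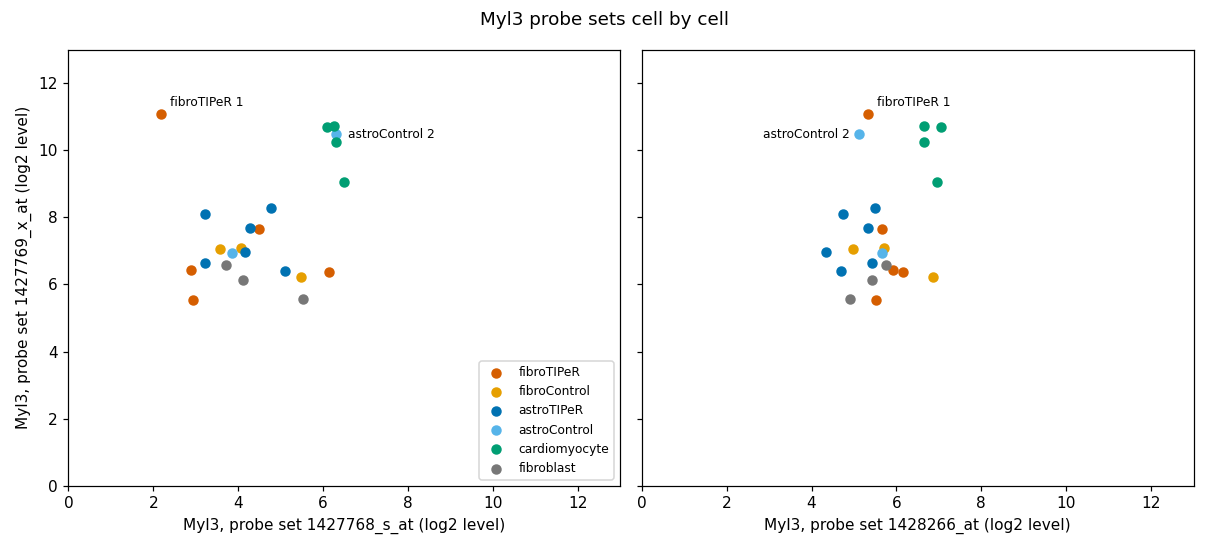
Log2 level of Myl3 on probe set 1427769_x_at (vertical) against 1427768_s_at (left) and 1428266_at (right) in all 23 cells, coloured by group. The 4 cardiomyocytes are high on each, whereas fibroTIPeR 1 is high on 1427769_x_at alone (11.08) and astroControl 2 on that probe set (10.49) and 1427768_s_at (6.31).

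Myl4 1422580_at was at 5.42, 3.83, 4.51, 5.52 and 5.22 in fibroTIPeR cells against 4.60, 3.22 and 6.60 in fibroControl cells. Myl7 was at 4.03, 3.68, 3.76, 4.78 and 3.18 against 4.95, 3.62 and 3.72, and Myh7 at 4.03, 4.69, 4.03, 3.72 and 3.18 against 4.69, 3.22 and 3.72. In all of these the groups overlapped. Myl2, Myl7 and Myh7 held the same value in fibroTIPeR 1, 4.03, and again in fibroTIPeR 5, 3.18. These values exceeded only 23.6% and 8.88% of the probe sets of those cells. All values of these genes in both groups lay below 5.02, the mean level of the median probe set. Whether their transcripts were detected was not tested. By limma 0 of the 10 members passed between fibroTIPeR and fibroControl cells, where 0.00222% of all probe sets passed, and 0 had an unadjusted p under 0.05, where 6.4% of all probe sets did. Their differences ran from -0.64 to 0.86 with a median of -0.06, against -0.005 over all probe sets, and 4 of 10 were positive.

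Ribosomal RNA signal varied among the fibroblast recipients. Signal of the 18S control probe sets was at 12.38, 11.03, 13.48, 7.80 and 7.88 in fibroTIPeR cells and between 11.23 and 12.08 in fibroControl cells. The fibroTIPeR cells thus fell into 3 with high and 2 with low 18S signal, and Myh6 was at 4.52 to 5.32 in the 3 and at 5.28 and 5.38 in the 2. With the 18S level as a covariate the Myl2 difference was 0.15, of opposite sign, and still did not pass. The cardiomyocyte marker list without myosins averaged 5.80 ± 0.41 in fibroTIPeR and 5.11 ± 0.18 in fibroControl cells (SD, n = 5 and 3). Untreated fibroblasts averaged 5.73 ± 0.55 on it (n = 3). Between fibroTIPeR and fibroControl cells 0 of its 12 genes passed by limma. Only Atp2a2 had an unadjusted p under 0.05, where 6.43% of all genes did. The fibroblast markers averaged 8.05 ± 0.34 in fibroTIPeR, 9.25 ± 1.10 in fibroControl cells and 8.40 ± 0.96 in untreated fibroblasts. Of these 12, 0 passed between fibroTIPeR and fibroControl cells, with 3 at an unadjusted p under 0.05. On the cardiomyocyte and fibroblast lists the fibroTIPeR mean was nearer to that of untreated fibroblasts than the fibroControl mean was. The same held on the smooth muscle and macrophage lists. On the skeletal muscle and endothelial lists the fibroControl mean was nearer, and on the astrocyte list the means were level at 6.61. This order of means was not tested. The part of these levels in the myosin values was not tested.

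Against untreated fibroblasts, 0 of the 10 members passed in fibroTIPeR cells, where 0.00444% of all probe sets did, and 0 passed in fibroControl cells, where 1.32% did. In each comparison 1 member had an unadjusted p under 0.05, where 10.5% of all probe sets did for fibroTIPeR and 16.7% for fibroControl cells. In each, 1 member, Myh6 1448826_at, had every recipient cell below every fibroblast. That pattern was seen in 2.62% of all probe sets for fibroTIPeR and in 10.9% for fibroControl cells. These comparisons share the fibroblasts. The 18S signal of all 3 fibroControl cells, 11.23 to 12.08, lay above that of all fibroblasts, 7.05 to 8.06. With the 18S level as a covariate the Myh6 difference from fibroblasts was -1.23 in fibroTIPeR (adjusted p = 0.9143) and -1.98 in fibroControl cells (adjusted p = 0.622).

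Both kinds of fibroblast recipient stayed below cardiomyocytes for Myl2 and Myh6. In fibroTIPeR cells Myl2 was lower than in cardiomyocytes by a difference of -6.58 (adjusted p = 2.468e-07) and Myh6 by -5.82 (adjusted p = 1.434e-05). In fibroControl cells the differences from the same cardiomyocytes were -6.48 for Myl2 (adjusted p = 6.025e-06) and -6.67 for Myh6 (adjusted p = 1.639e-05). The 18S signal of the cardiomyocytes was 6.94 to 8.24, below that of all fibroControl cells and of fibroTIPeR 1 to 3. With the 18S level as a covariate the differences were -7.28 for Myl2 (adjusted p = 1.456e-05) and -5.53 for Myh6 (adjusted p = 0.003173) in fibroTIPeR cells, and -7.43 (adjusted p = 0.0002125) and -6.28 (adjusted p = 0.01351) in fibroControl cells. With the mean of the bright and the dim Myh6 probe set, the Myh6 difference was -3.32 in fibroTIPeR and -3.73 in fibroControl cells and passed in each. Myl2 and Myh6 were the 2 members called in each comparison, where 0.56% of all probe sets passed for fibroTIPeR and 2.48% for fibroControl cells (0.129% and 0.795% as lower). The shared heavy chain probe set 1448554_s_at was at 5.10, 5.52, 5.39, 3.42 and 3.37 in fibroTIPeR and 4.39, 3.42 and 4.83 in fibroControl cells, all below the cardiomyocytes. Its difference from cardiomyocytes was -2.41 in fibroTIPeR (adjusted p = 0.06972) and -2.76 in fibroControl cells (adjusted p = 0.03149). The second passed and the first did not; leaving out fibroTIPeR 2 brought the first past the threshold (0.04917), and leaving out any 1 of the 3 fibroControl cells took the second to between 0.05209 and 0.1371, as leaving out cardiomyocyte 2 (0.06455) or 3 (0.1028) did.

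In the astrocyte recipients no member passed either. Myl2 ranged from 1.996 to 5.11 with a median of 3.26 in the 6 astroTIPeR cells, against 4.16 and 3.04 in the 2 astroControl cells. The astroControl cells lay inside the astroTIPeR range, and only astroTIPeR 4, at 5.11, exceeded the highest fibroblast at 4.99. The difference was -0.14 (interval -1.64 to 1.36, limma adjusted p = 0.9813).

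Myh6 (1448826_at) ranged from 3.30 to 5.97 with a median of 4.71 in astroTIPeR cells, against 3.85 and 4.37 in astroControl cells. The ranges overlapped, and the difference of 0.55 (interval -1.13 to 2.22) did not pass (adjusted p = 0.9028). The dim Myh6 probe set 1417729_at was the member whose groups did not overlap, at 1.59 to 2.63 in astroTIPeR cells against 1.43 and 1.40 in astroControl cells. Every one of these values lay near the bottom of the scale.

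Among the other members, Myl3 1427769_x_at ran from 6.39 to 8.27 with a median of 7.32 in astroTIPeR cells, against 6.92 and 10.49 in astroControl cells. The highest of these was a mock-transfected cell, astroControl 2, which lay among the cardiomyocytes. Myl7 ran from 3.02 to 6.28 with a median of 3.36 in astroTIPeR cells, against 4.43 and 4.12 in astroControl cells, and astroTIPeR 3 was the one high cell. By limma 0 of the 10 members passed between astroTIPeR and astroControl cells, where 0.127% of all probe sets passed, and 0 had an unadjusted p under 0.05, where 9.81% did. The 1 member without overlap compares with 6% of all probe sets whose astroTIPeR cells all lay above the astroControl cells. The median member difference was 0.08, against 0.03 over all probe sets. The Gapdh signal at the 3′ end exceeded that at the 5′ end, a sign of RNA length, by 2.94 to 5.05 log2 units in astroTIPeR cells and by 1.51 and 2.63 in astroControl cells, without overlap. The part of this sign in the comparison was not tested.

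Compared with cardiomyocytes, astroTIPeR cells were lower for Myl2, by -6.44 (adjusted p = 1.739e-07), and for Myh6, by -6.25 (adjusted p = 1.902e-06), or by -3.65 with the mean of the Myh6 probe sets (adjusted p = 1.902e-05). The shared probe set 1448554_s_at was lower by -2.39 (adjusted p = 0.03068), and leaving out cardiomyocyte 2 or 3 or astroTIPeR 2 or 4 took it to between 0.0578 and 0.1303. Of the 10 members 2 passed, where 1.87% of all probe sets passed and 0.733% as lower. This comparison crosses the array sets, and 8 of 10 passed in the values as deposited and 7 with quantile normalization within each set.

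A test of whether the transfer effect differed between the recipient types, fibroTIPeR minus fibroControl minus the difference of astroTIPeR and astroControl, called 0 of the 10 members, where 0% of all probe sets passed. By limma 0 had an unadjusted p under 0.05, where 7.99% of all probe sets did, and the smallest adjusted p was 0.7297. The controls were of different kinds, fibroblast RNA for fibroControl and mock transfection for astroControl, so recipient type and kind of control cannot be told apart here.

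**Figure D3:**
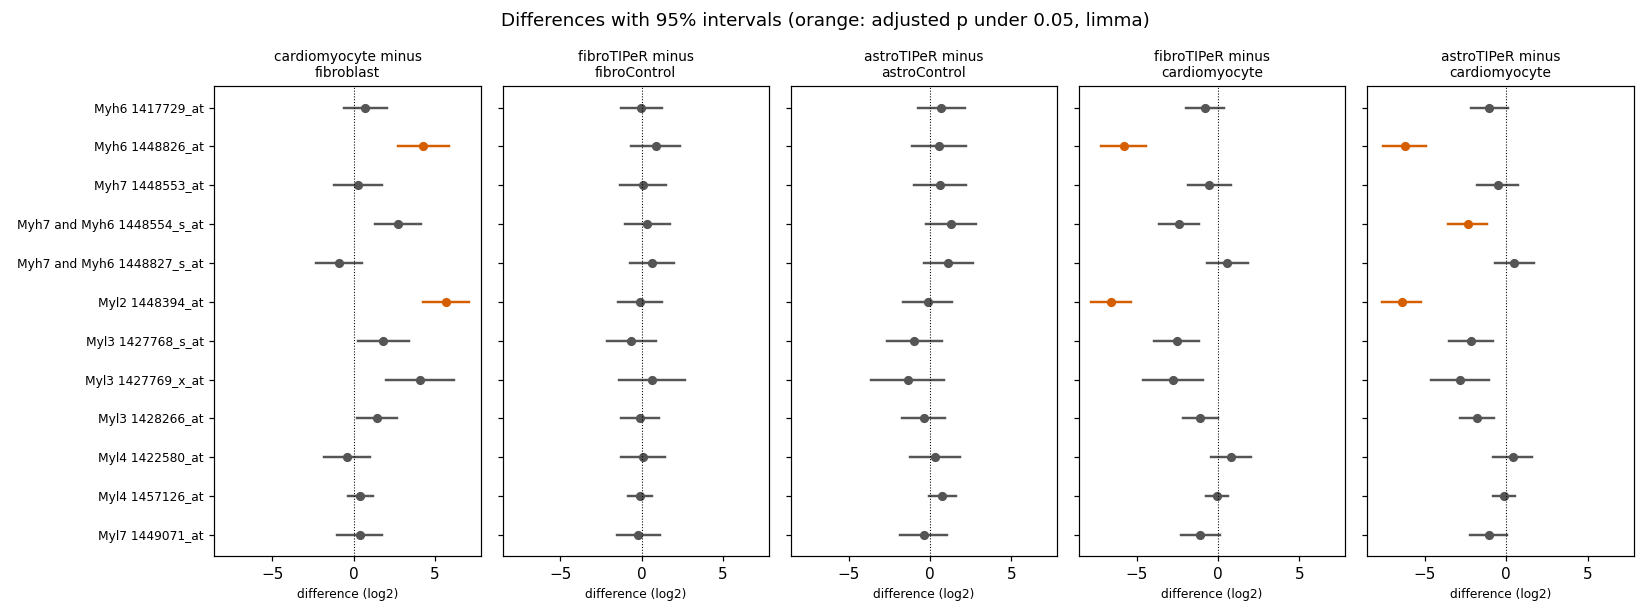
Differences in log2 level of the member probe sets with 95% intervals, in 5 comparisons, the first-named group minus the second. Orange marks an adjusted p under 0.05. Intervals for the transfer comparisons span 0 for Myl2 and Myh6, from -1.45 to 1.24 and from -0.64 to 2.36 in fibroblasts.

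Ordered by group mean, Myl2 ran cardiomyocyte, fibroblast, astroControl, astroTIPeR, fibroControl and fibroTIPeR, and only the step below cardiomyocytes had ranges that did not overlap. Myh6 1448826_at ran cardiomyocyte, fibroblast, fibroTIPeR, astroTIPeR, fibroControl and astroControl. Its steps from cardiomyocyte to fibroblast and from fibroblast to fibroTIPeR were free of overlap, and the lower neighbours overlapped. Counted by cell, 0 of the 5 fibroTIPeR, 3 fibroControl, 6 astroTIPeR and 2 astroControl cells reached the lowest cardiomyocyte for Myl2, Myh6 1448826_at or the shared 1448554_s_at. For Myl3 1427769_x_at 1 of 5 fibroTIPeR and 1 of 2 astroControl cells did, which are the cells named above, and for 1428266_at 1 fibroControl cell at 6.85 did.

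Likeness to each member was measured as Pearson's r over the 15 fibroblast and cardiomyocyte arrays, and the 3 highest of 18192 other genes are given. The arrays share cell types and a labelling method, so the values are descriptions. Myl2 was closest to Mb, the myoglobin gene (r = 0.96), to Plin5, a lipid droplet coat gene of oxidative tissue (r = 0.95), and to Myh6 (r = 0.94). Without the 4 cardiomyocytes, over 11 cells, these values were 0.19, -0.06 and 0.48, and over the 8 astrocyte arrays 0.37, 0.42 and -0.03. Myh6 was closest to Myl2, to Cox7a1, a cytochrome oxidase subunit of heart and skeletal muscle (r = 0.90), and to Mb (r = 0.89). Without cardiomyocytes the values of Cox7a1 and Mb with Myh6 were 0.48 and -0.10, and over the astrocyte arrays -0.56 and 0.65. Myl3, on 1427769_x_at, was closest to Gpam, an enzyme of glycerolipid synthesis (r = 0.88), Csrp3, the muscle LIM protein gene (r = 0.87), and Slc29a4 (r = 0.84). These were 0.79, 0.78 and 0.87 without cardiomyocytes, and -0.69, -0.08 and 0.56 over the astrocyte arrays. The 11 cells without cardiomyocytes include fibroTIPeR 1, at 11.08 on this probe set. Over those cells 1427769_x_at had r = -0.50 with Myl3 1427768_s_at and -0.17 with 1428266_at, so its neighbours are not those of Myl3 as a whole. Myh7 was closest to Bik (r = 0.92), Mylk2 (r = 0.88) and Dusp15 (r = 0.87), with 0.77, 0.78 and 0.38 without cardiomyocytes and -0.10, -0.29 and 0.30 over the astrocyte arrays. Myl7 was closest to Il2ra (r = 0.85), Cdk1 (r = 0.84) and Panct2 (r = 0.83), with 0.74, 0.67 and 0.56 without cardiomyocytes and 0.20, -0.50 and 0.07 over the astrocyte arrays. Myl4, on its flat probe set, was closest to Gigyf2 (r = 0.94), Pgd (r = 0.93) and Cyp4v3 (r = 0.92). The values were 0.94, 0.95 and 0.95 without cardiomyocytes and -0.23, 0.19 and -0.15 over the astrocyte arrays. The low cells of this probe set, fibroblast 3 and fibroTIPeR 1, are among the 11 cells without cardiomyocytes. Spearman's rank correlation over the 15 arrays was 0.41 for Gigyf2, 0.56 for Pgd and 0.85 for Cyp4v3.

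**Figure D4:**
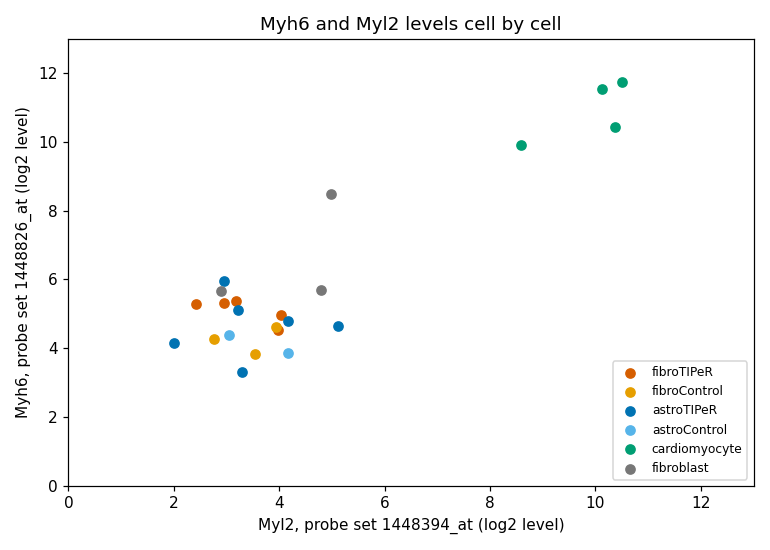
Myh6 level on 1448826_at (vertical) against Myl2 level (horizontal), both log2, in the 23 cells by group. The 4 cardiomyocytes stand alone at the upper right, with Myh6 from 9.90 to 11.76, and fibroblast 3 is the highest of the rest on Myh6 at 8.48.

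Other genes of the myosin system were taken from 3 lists. Over all 18193 genes, 0.176% passed between cardiomyocytes and fibroblasts, 0.0055% between fibroTIPeR and fibroControl cells, 0.104% between astroTIPeR and astroControl cells and 1.38% between fibroControl cells and fibroblasts. Against cardiomyocytes 0.61% passed in fibroTIPeR, 2.91% in fibroControl and 1.96% in astroTIPeR cells. Of the 18 other conventional myosin chains measured, 0 passed between cardiomyocytes and fibroblasts by limma and 5 had an unadjusted p under 0.05, where 9.64% of all genes did. Their median difference was -0.23, against 0.09 over all genes. Myh9, the main non-muscle heavy chain gene, was at 5.79 ± 2.97 in cardiomyocytes and 10.86 ± 1.68 in fibroblasts (SD, n = 4 and 3), a difference of -5.07 that did not pass (adjusted p = 0.1376). The other non-muscle heavy chain genes had higher means in cardiomyocytes. Myh14 was at 6.36 there and 4.61 in fibroblasts (adjusted p = 0.3868), and Myh10 at 10.62 and 9.70. Myh9 was the list's 1 called gene against cardiomyocytes, higher in fibroTIPeR cells by 5.68 (adjusted p = 0.01292), in fibroControl cells by 5.61 (adjusted p = 0.0164) and in astroTIPeR cells by 4.12 (adjusted p = 0.0414). Between fibroTIPeR and fibroControl cells 0 of the 18 passed by limma and 0 had an unadjusted p under 0.05. The smallest p there belonged to Myh3, the embryonic skeletal heavy chain gene, at 6.07 ± 0.58 in fibroTIPeR and 4.78 ± 0.47 in fibroControl cells (adjusted p = 0.7911). Between astroTIPeR and astroControl cells 0 passed by limma and 4 had an unadjusted p under 0.05, where 9.31% of all genes did. The smallest p values there belonged to Myl6b, with a difference of -2.28 (adjusted p = 0.1426), and Myl1, with -1.97 (adjusted p = 0.2541).

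Genes for myosin assembly, binding and phosphorylation had a median difference of 0.41 between cardiomyocytes and fibroblasts, against 0.09 over all genes. Of these 22 genes, 1 passed: Mybpc3, the cardiac myosin-binding protein C gene, was at 11.53 ± 0.61 in cardiomyocytes and 6.59 ± 1.55 in fibroblasts (difference 4.94, adjusted p = 0.03101). It was lower than in cardiomyocytes in fibroTIPeR cells by -3.94 (adjusted p = 0.02968), in fibroControl cells by -5.01 (adjusted p = 0.007207) and in astroTIPeR cells by -4.41 (adjusted p = 0.003126). Csrp3 was lower too, by -2.97 in fibroTIPeR (adjusted p = 0.01541), -2.83 in fibroControl (adjusted p = 0.02326) and -3.29 in astroTIPeR cells (adjusted p = 0.001612). FibroControl cells also had higher Mybpc1, the slow skeletal myosin-binding protein C gene, by 6.42 (adjusted p = 0.01192), and astroTIPeR cells higher Unc45b, a muscle myosin chaperone gene, by 2.76 (adjusted p = 0.0235). Unc45a, the general form of that chaperone, was lower in fibroControl cells than in fibroblasts by -4.31 (adjusted p = 0.04349). Between fibroTIPeR and fibroControl cells 0 of the 22 passed by limma and 1 had an unadjusted p under 0.05, Mybpc2, the fast skeletal form, at 7.08 ± 2.48 in fibroTIPeR and 4.86 ± 0.58 in fibroControl cells. The median there was -0.25, against -0.02 over all genes, and between astroTIPeR and astroControl cells both counts were 0.

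Of 23 transcriptional regulators of cardiac myosin genes, 0 passed by limma in any comparison. Between cardiomyocytes and fibroblasts 2 of 23 had an unadjusted p under 0.05, where 9.64% of all genes did: Nkx2-5, a homeodomain factor of the early heart, with a difference of 2.003 and Nfatc4 with 0.58. The list's median difference was 0.24, against 0.09 over all genes. Between fibroTIPeR and fibroControl cells 3 did, where 6.43% of all genes did, with Tead1, an M-CAT binding factor, at 7.98 ± 2.25 in fibroTIPeR and 5.16 ± 0.14 in fibroControl cells (adjusted p = 0.572). Between astroTIPeR and astroControl cells 2 did, where 9.31% of all genes did, and the list's median difference was 0.20, against 0.08 over all genes.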

How the data were processed

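Single cells were picked, their RNA amplified and the product labelled with biotin and hybridized to Affymetrix mouse arrays, per the labels' protocols. The deposited values were log2 expression per probe set, as judged from their range; how the authors summarized and normalized them was not given in the sources used here. No detection calls were used and precision is limited by how few arrays each group has.

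All 23 columns were quantile normalized, since the 15 fibroblast and cardiomyocyte arrays and the 8 astrocyte arrays differed in median. The 64 control probe sets were left out. limma 3.58.1 in R 4.3.3 (statmod 1.5.0) fitted a mean for each of the 6 groups (lmFit, eBayes with trend), two-sided, with Benjamini-Hochberg adjustment over 45037 probe sets, a threshold of 0.05 and 95% intervals. For lists and likeness, the probe set with the highest mean stood for each of 18193 genes. Figures used matplotlib 3.10.9 in Python 3.11.15.

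Symbols came from the platform annotation, in which 34945 of the tested probe sets carried 1 symbol, 932 several and 9160 were not listed. Promoters came from RefSeq (GRCm38.p6), where all 6 genes matched. Every member probe set was described; for each list, up to 4 genes past the threshold with the largest change were named, or the 2 with the smallest p. Of 23 genes in the list for myosin assembly and 19 other myosin chains, 22 and 18 were measured. Members and lists were chosen with earlier results of these data known.

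Alternatives were the deposited values, median centring, quantile normalization within each array set, 1 probe set or the mean per gene, probe sets above the median only, eBayes without trend or robust, arrayWeights, the compared groups alone, the replicate number as a term, the 18S level as a covariate and each cell left out.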

Additional observations from a re-analysis of the deposited data

Results flagged for a closer look

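Myl7 in astroTIPeR 3 lay far from the other 5 astroTIPeR cells, at a log2 level of 6.283 against 3.019 to 4.169 in the others. Its gap to the nearest cell was 0.648 of the range of the group. Chance alone would set apart a cell in about 5% of the 36 groups of 4 to 6 cells examined, or about 1.8 groups, and 1 was found.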

How the results depend on the processing

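The count of the 10 members past the threshold was 0 under every alternative run for fibroTIPeR minus fibroControl, astroTIPeR minus astroControl, fibroTIPeR minus fibroblast, fibroControl minus fibroblast and the difference between transfer effects. For cardiomyocyte minus fibroblast the count was 2, with 1 among probe sets above the median level, where 4 members remained testable and Myl2 was not among them. With the mean of a gene's probe sets, which leaves 6 genes to count, it was 3 (Myh6, Myl2 and Myl3). The count was 4 with arrayWeights, 0 with the compared groups alone and 1 to 2 when each cell was left out. For fibroTIPeR minus cardiomyocyte and for fibroControl minus cardiomyocyte it was 2, with 1 among probe sets above the median level and 3 with arrayWeights or the mean of a gene's probe sets, and for fibroControl also 3 with the compared groups alone, and with each cell left out it ran from 2 to 3 for fibroTIPeR and was 2 for fibroControl. For astroTIPeR minus cardiomyocyte it was 2, with 8 in the deposited values, 5 with median centring, 7 with quantile normalization within each set, 6 with arrayWeights and 4 with the compared groups alone. The cause of these moves was not tested.

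Small differences changed sign. Myl2 in astroTIPeR minus astroControl was 0.0196 with arrayWeights, and with each cell left out it ran from -0.70 to 0.42, at 0.15 without astroTIPeR 6 and 0.42 without astroControl 1. Myl2 in fibroTIPeR minus fibroControl was 0.15 with the 18S covariate, and with each cell left out ran from -0.43 to 0.16, at 0.12 without fibroTIPeR 4 and 0.16 without fibroControl 3. In cardiomyocyte minus fibroblast, Myh7 ran from -0.66 to 0.89 with each cell left out, below 0 without fibroblast 2 (-0.0429) and cardiomyocyte 2 (-0.66), and Myl7 from -0.0408 without cardiomyocyte 3 to 0.79 without cardiomyocyte 2. Averaging the probe sets of a gene took the Myh6 difference to 2.51 in cardiomyocyte minus fibroblast, and to -3.32, -3.73 and -3.65 in fibroTIPeR, fibroControl and astroTIPeR minus cardiomyocyte, since it adds the dim probe set. The mean of the 3 Myl3 probe sets passed in cardiomyocyte minus fibroblast, at 2.46 (limma adjusted p = 0.03719). Its probe set 1427769_x_at alone, at 4.09, did not (adjusted p = 0.135). The shared probe set 1448554_s_at in fibroControl minus cardiomyocyte did not pass with median centring (limma adjusted p = 0.05595), the compared groups alone (0.1018) or the 18S covariate (0.1697).

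Whether the replicate numbers pair the cells is not stated in the labels. Deviations of same-numbered cells from their group means correlated between -0.305 and 0.239 in 44 pairs, 6 of them over 0.1. Differently numbered cells were not compared, so these values cannot decide whether cells were paired. With the replicate block the counts of members past the threshold were 2 for cardiomyocyte minus fibroblast and 0 for fibroTIPeR minus fibroControl. The shared heavy chain probe set 1448554_s_at passed in cardiomyocyte minus fibroblast under the block, with a difference of 3.13 (limma adjusted p = 0.04588).

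Of the genes most like each member, 15 of 18 were again among the 3 closest with deposited values and 2 of 18 with Spearman correlation.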
